A study of Mus musculus with 20 samples.

Results

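The mouse Fc gamma receptor genes Fcgr1, Fcgr3, Fcgr4 and Fcgr2b, with the signalling chain gene Fcer1g and the neonatal receptor gene Fcgrt, were followed in macrophages and monocytes sorted from tumours. They were chosen by name, as Entrez gene IDs matched to symbols, and all 6 were present among the 36528 gene models counted in each of 20 RNA-seq libraries. The tumours were grown from MC38, a mouse colon carcinoma line, and RNA was taken on day 7 after the start of treatment. The 4 groups held 5 libraries each and were macrophages from anti-PD-L1 tumours, macrophages from control tumours, monocytes from anti-PD-L1 tumours and monocytes from control tumours. PD-L1 is the ligand of the inhibitory T cell receptor PD-1. The sources used here name no antibody clone, isotype or dose, no control reagent, no strain, age or sex of the mice and no sort gates. They do not say whether libraries of a group are different animals, so every p-value rests on the spread among these libraries, which can be technical only.

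Fc gamma receptors bind the constant part of IgG and let a myeloid cell respond to antibody-coated targets. The activating receptors signal through the paired ITAM tyrosines of the common gamma chain, which recruit the kinase Syk and drive phagocytosis, the oxidative burst and cytokine release. The inhibitory receptor Fcgr2b carries an ITIM motif that recruits the lipid phosphatase SHIP1, so the balance of activating to inhibitory receptors sets how readily a cell responds to immune complexes. FcRn, the product of Fcgrt with beta-2-microglobulin, binds IgG inside acidic endosomes and returns it to the surface instead of letting it be degraded. In tumours, macrophages and monocytes use these receptors to bind and take up therapeutic antibodies and the cells they coat.

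Among the activating receptors, Fcgr1 (Entrez ID 14129; GRCm38.p6 chromosome 3, bases 96282909 to 96293969, minus strand) encodes the high-affinity receptor CD64. Fcgr4 (246256; chromosome 1, 171018926 to 171029761, plus strand) encodes a receptor of intermediate affinity for mouse IgG2a and IgG2b. Fcgr3 (14131; chromosome 1, 171051169 to 171065915, minus strand) encodes the low-affinity activating receptor, and Fcgr2b (14130; chromosome 1, 170960558 to 170976071, minus strand) its inhibitory counterpart. Fcer1g (14127; chromosome 1, 171229572 to 171234349, minus strand) encodes the common gamma chain. Fcgrt (14132; chromosome 7, 45092993 to 45103822, minus strand) encodes the heavy chain of FcRn.

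The promoters of the activating genes Fcgr1 and Fcgr4 and of the inhibitory gene Fcgr2b are shown because the ratios of Fcgr1 and Fcgr4 to Fcgr2b went opposite ways between the cell types, and because their windows differ in the interferon-related letters they hold. They were thus picked with both results known, and a link between the letters and the ratios was not tested. Each runs from 250 bases before to 50 bases after the RefSeq start on GRCm38.p6 and reads 5′ to 3′ on the gene's own strand. Capitals mark matches to the letters TTCNNNGAA (the GAS element of interferon-responsive promoters), GAAANNGAA (within the interferon-stimulated response element, ISRE, read by IRF proteins) and GAGGAA (the core of PU.1 sites), searched on both strands.
Fcgr1, chr3:96293920-96294219, minus strand: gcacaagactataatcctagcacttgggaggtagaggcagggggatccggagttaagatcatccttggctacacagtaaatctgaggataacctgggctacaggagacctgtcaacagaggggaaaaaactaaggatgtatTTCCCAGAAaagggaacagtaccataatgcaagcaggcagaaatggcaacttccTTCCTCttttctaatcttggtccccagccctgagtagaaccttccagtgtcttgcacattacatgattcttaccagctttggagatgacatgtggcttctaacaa
Fcgr4, chr1:171018676-171018975, plus strand: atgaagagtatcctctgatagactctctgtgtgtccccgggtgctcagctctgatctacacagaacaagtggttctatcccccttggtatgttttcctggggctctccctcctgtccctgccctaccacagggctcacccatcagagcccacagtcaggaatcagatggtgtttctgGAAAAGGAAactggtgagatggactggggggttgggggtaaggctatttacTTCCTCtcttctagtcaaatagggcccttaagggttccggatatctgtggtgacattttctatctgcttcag
Fcgr2b, chr1:170976022-170976321, minus strand: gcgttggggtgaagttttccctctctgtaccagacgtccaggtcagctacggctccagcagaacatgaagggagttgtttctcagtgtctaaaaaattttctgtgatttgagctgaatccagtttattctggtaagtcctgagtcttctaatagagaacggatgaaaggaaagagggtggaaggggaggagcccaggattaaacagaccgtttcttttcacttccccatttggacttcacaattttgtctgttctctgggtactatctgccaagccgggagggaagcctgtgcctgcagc
The Fcgr1 window held a GAS match, TTCCCAGAA, beginning at position -109 from the start, and a PU.1 match on the other strand, TTCCTC, at position -55. The Fcgr4 window held an ISRE match, GAAAAGGAA, at position -73 and a PU.1 match on the other strand at position -22. None of these letters was found in the Fcgr2b, Fcer1g or Fcgrt windows, and both Fcgr3 windows held PU.1 letters only. Among all 32851 promoter windows of this length, 8.30% held the GAS letters, 8.56% the ISRE letters and 28.3% the PU.1 letters. A match describes the sequence and does not show that a factor binds there.

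Totals ran from 30191509 to 36514133 uniquely aligned reads per library, and each Fc gamma receptor gene had at least 13281 reads in every library. Fcgrt had 728 to 5273 reads. Markers followed the sort labels. The 12 macrophage genes summed to 27954 to 35637 CPM (counts scaled to a common library total) in anti-PD-L1 macrophages and 21566 to 32214 in control macrophages, against 7648 to 9832 in anti-PD-L1 monocytes and 6679 to 10138 in control monocytes. The 10 monocyte genes summed to 325 to 548 CPM in anti-PD-L1 macrophages and 318 to 534 in control macrophages, against 7699 to 10870 in anti-PD-L1 monocytes and 4661 to 10066 in control monocytes. A list of 19 fibroblast genes stood at a median mean log2 CPM of 1.38 in anti-PD-L1 macrophages and 4.37 in control macrophages, and of 2.24 in anti-PD-L1 monocytes and 4.93 in control monocytes. Summed, these genes reached 990.4 to 2169 CPM in anti-PD-L1 macrophages and 1642 to 5888 in control macrophages. The sums were 4219 to 7308 in anti-PD-L1 monocytes and 7027 to 12359 in control monocytes, and 0 of the 19 genes were at 0. Beside the low mean log2 CPM, such sums are carried by the highest genes of the list and not by all 19 alike. In 7 control libraries (3 macrophage, 4 monocyte) the mean log2 CPM of this list lay above that of every anti-PD-L1 library. Every control sample number was also below every anti-PD-L1 one, so treatment and number order cannot be told apart.

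Levels are given as nRPKM, the authors' size-factor-adjusted reads per kilobase (RPKM), which allows genes to be set side by side per length. Fcer1g stood highest of the 6 genes in every group, at 1632 ± 60.1 nRPKM in anti-PD-L1 macrophages, 1311 ± 265 in control macrophages, 1352 ± 72.2 in anti-PD-L1 monocytes and 1065 ± 221 in control monocytes (SD, n = 5 each). Fcgr4 came next by nRPKM in macrophages of both treatments and in anti-PD-L1 monocytes. In control monocytes Fcgr4 averaged 412 ± 88.8 nRPKM, under Fcgr2b at 480.3 ± 82.6 and Fcgr3 at 467 ± 87.5, although the ranges of these 3 genes overlapped. Fcgrt had the lowest nRPKM in each group.

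**Figure D1:**
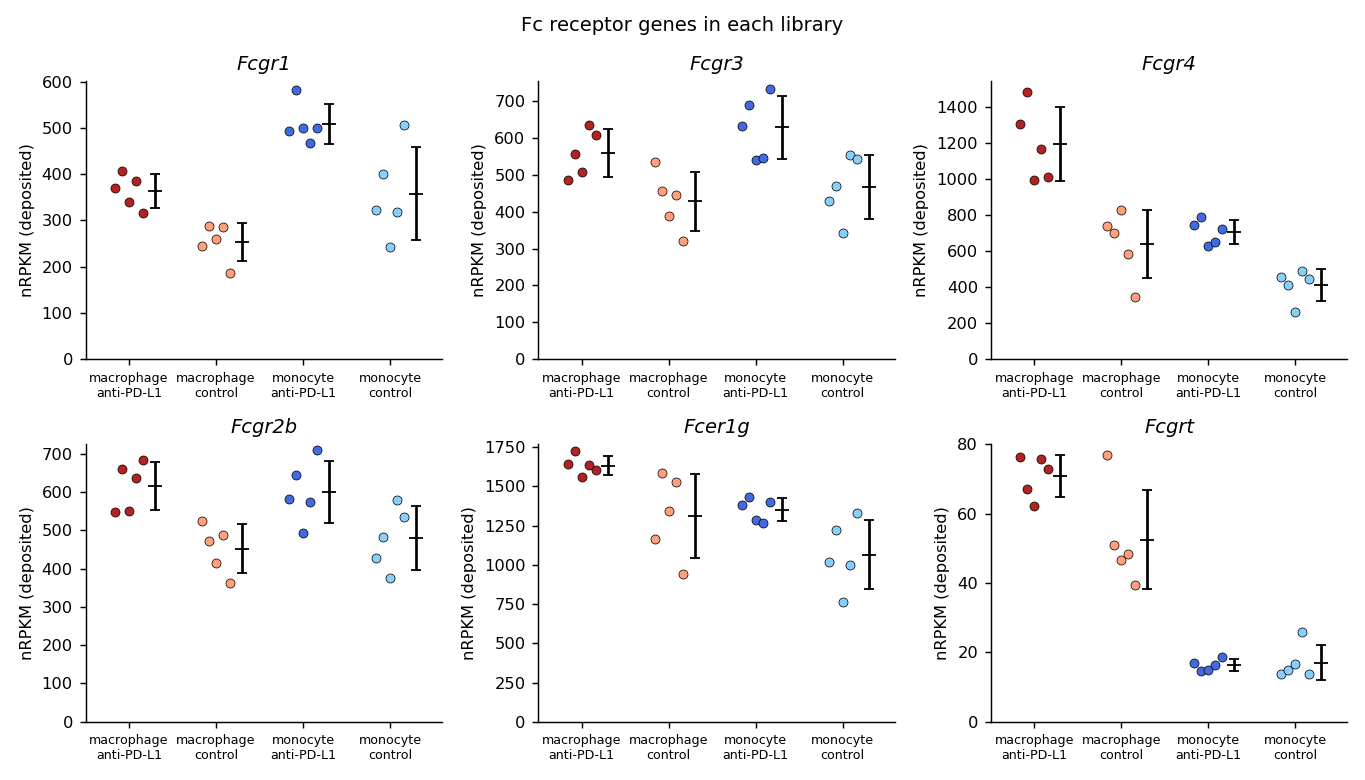
Deposited nRPKM of the 6 genes in each of the 20 libraries, with 1 panel per gene and its own axis from 0. Points are libraries, and the bar beside them is the group mean with its SD (n = 5). The 5 anti-PD-L1 macrophage libraries lie between 994 and 1480.4 nRPKM of Fcgr4, above every other library in that panel.

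Fcgr4 was higher in both cell types from anti-PD-L1 tumours. Its nRPKM was 1302, 1480.4, 994, 1164 and 1009 in anti-PD-L1 macrophages, against 740.1, 699, 825, 579.7 and 341 in control macrophages. No anti-PD-L1 macrophage library overlapped the control range, and control library 5 was the lowest of its group. That library was the lowest control macrophage library for the other members too. Its fibroblast list had a mean log2 CPM of 5.07, the highest of the control macrophages, and a link was not tested. Fcgr4 rose 1.85-fold in anti-PD-L1 macrophages (log2 fold change 0.88 ± 0.20 SE, 95% interval 0.47 to 1.30, edgeR quasi-likelihood test with Benjamini-Hochberg adjusted p = 0.0397). In bulk RNA from a sort, fewer cells of a type and less RNA per cell cannot be told apart. Fcgr4 was the only member called at an adjusted p of 0.05 in macrophages, where 1.73% of the 15390 genes tested were called higher, 2.92% lower and 4.65% called in either direction. That call was lost when 1 of 5 single libraries was left out (anti-PD-L1 macrophage 1 or 4, control macrophage 1 or 5, or control monocyte 1), with adjusted p up to 0.0836 and a log2 fold change of 0.77 to 1.04 over all 20 omissions.

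In monocytes Fcgr4 nRPKM was 741, 785, 627, 651 and 719 with anti-PD-L1, against 457, 410.3, 261, 489 and 442 in controls. The groups again did not overlap, and control library 3 was the lowest. It was also the lowest control monocyte library for Fcgr1, Fcgr2b, Fcgr3 and Fcer1g, but not for Fcgrt. Its fibroblast list had a mean log2 CPM of 5.66, the highest of the 20 libraries, and a link was not tested. Fcgr4 rose 1.72-fold in anti-PD-L1 monocytes (log2 fold change 0.78 ± 0.20 SE, 95% interval 0.36 to 1.19, edgeR adjusted p = 0.0107) and kept its call with each of the 20 libraries left out. Of the 15390 genes, 9.92% were called higher in anti-PD-L1 monocytes, 15.4% lower and 25.3% in either direction. Groups that did not overlap, with anti-PD-L1 higher, were found for 4.11% of genes in macrophages and 5.09% in monocytes, and with anti-PD-L1 lower for 2.83% and 2.13%.

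Fcgr1 and Fcgr3, the other activating receptors, passed the test in monocytes alone, although the difference between the cell types was not itself called. The nRPKM of Fcgr1 was 494, 582, 499.5, 468 and 501 in anti-PD-L1 monocytes, against 322, 400.1, 242, 319 and 507 in control monocytes. Control library 5 reached the anti-PD-L1 range and the other 4 controls lay below it. Fcgr1 rose 1.43-fold (log2 fold change 0.51 ± 0.15 SE, edgeR adjusted p = 0.0209). The call did not hold without control monocyte 3 (log2 fold change 0.40, adjusted p = 0.0630), without anti-PD-L1 monocyte 2 or control monocyte 4, or in a fit of the 2 monocyte groups alone (0.50, adjusted p = 0.0720, where the alternatives ranged from 0.0110 to 0.995).

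In macrophages Fcgr1 nRPKM was 370.3, 406, 339, 386 and 315 with anti-PD-L1, against 244, 288, 259, 286 and 187 in controls. The groups did not overlap, but the log2 fold change of 0.51 ± 0.15 SE had an edgeR adjusted p of 0.0558 and missed the threshold. DESeq2 called it (0.52, adjusted p = 0.0190), as did edgeR on the 2 macrophage groups alone (0.50, adjusted p = 0.0444), among alternatives that ranged from 0.0190 to 0.888.

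Fcgr3 rose in anti-PD-L1 monocytes, where its nRPKM was 634, 689.6, 542, 545 and 734, against 429, 471, 341, 554 and 543 in control monocytes. Control libraries 4 and 5 reached the anti-PD-L1 range. The log2 fold change was 0.43 ± 0.15 SE (1.35-fold, edgeR adjusted p = 0.0376), and the call was lost in 6 of 20 omissions of 1 library and on the 2 monocyte groups alone (adjusted p = 0.0797, alternatives 0.0236 to 0.848). In macrophages Fcgr3 had a log2 fold change of 0.37 ± 0.15 SE that was not called (edgeR adjusted p = 0.129), with 486 to 637 nRPKM in anti-PD-L1 libraries and 320.2 to 534 in controls.

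The inhibitory gene Fcgr2b had a positive log2 fold change in both cell types and passed the test in neither. In macrophages its nRPKM was 548, 661, 551, 636 and 684 with anti-PD-L1, against 524, 472, 415, 487 and 362 in controls. The groups did not overlap, and the log2 fold change was 0.43 ± 0.13 SE (edgeR adjusted p = 0.0571). DESeq2 (0.45, adjusted p = 0.0159) and edgeR on the 2 macrophage groups (0.42, adjusted p = 0.0472) called it, among alternatives from 0.0159 to 0.753. In monocytes the log2 fold change of Fcgr2b was 0.33 ± 0.13 SE (edgeR adjusted p = 0.0719), with 494 to 709 nRPKM in anti-PD-L1 libraries and 374 to 580.5 in controls, which overlapped.

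Fcgr2b and Fcgr3 are close copies, which bears on how uniquely aligned reads divide between them. Their longest coding transcripts (GENCODE) were 95.8% identical over 521 aligned bases, and 4.75% of the 50-base windows of Fcgr2b and 12.8% of those of Fcgr3 occurred unchanged in the other. The other pairs of Fc gamma receptor transcripts were 63.0% to 68.1% identical over their aligned bases and shared no such window. With the counts of Fcgr2b and Fcgr3 summed into 1 feature, the log2 fold change in monocytes was 0.38 (edgeR adjusted p = 0.0507), just short of a call. The sources used here do not say how counting treated strand, and Fcgr2b and Fcgrt overlap the antisense genes Gm38204 and Gm45669.

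Fcer1g, whose chain all 3 activating receptors need at the surface, was not called with treatment. Its nRPKM was 1643, 1723, 1561, 1633 and 1602 in anti-PD-L1 macrophages, against 1162, 1583, 1339.9, 1528 and 942 in control macrophages, a log2 fold change of 0.30 ± 0.14 SE (edgeR adjusted p = 0.182). The anti-PD-L1 libraries lay close together and the controls spread widely, overlapping them. In monocytes the log2 fold change was 0.35 ± 0.14 SE (edgeR adjusted p = 0.0650), with 1265 to 1429.9 nRPKM in anti-PD-L1 libraries and 760.3 to 1332 in controls. With neighbouring sample numbers as a replicate block (limma-voom), the monocyte value was 0.37 and was called (adjusted p = 0.0366, alternatives 0.0366 to 0.994).

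Fcgrt did not pass the test with treatment. Its nRPKM was 76.2, 66.9, 62.1, 75.8 and 72.9 in anti-PD-L1 macrophages, against 76.8, 50.8, 46.6, 48.2 and 39.5 in control macrophages. Control library 1 lay above the anti-PD-L1 libraries and the other 4 controls below them, and the log2 fold change of 0.42 ± 0.17 SE had an edgeR adjusted p of 0.147. In monocytes the nRPKM of Fcgrt was 16.8, 14.6, 15.0, 16.3 and 18.8 with anti-PD-L1, against 13.7, 14.9, 16.6, 25.8 and 13.9 in controls (log2 fold change -0.060 ± 0.18 SE, edgeR adjusted p = 0.831).

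**Figure D2:**
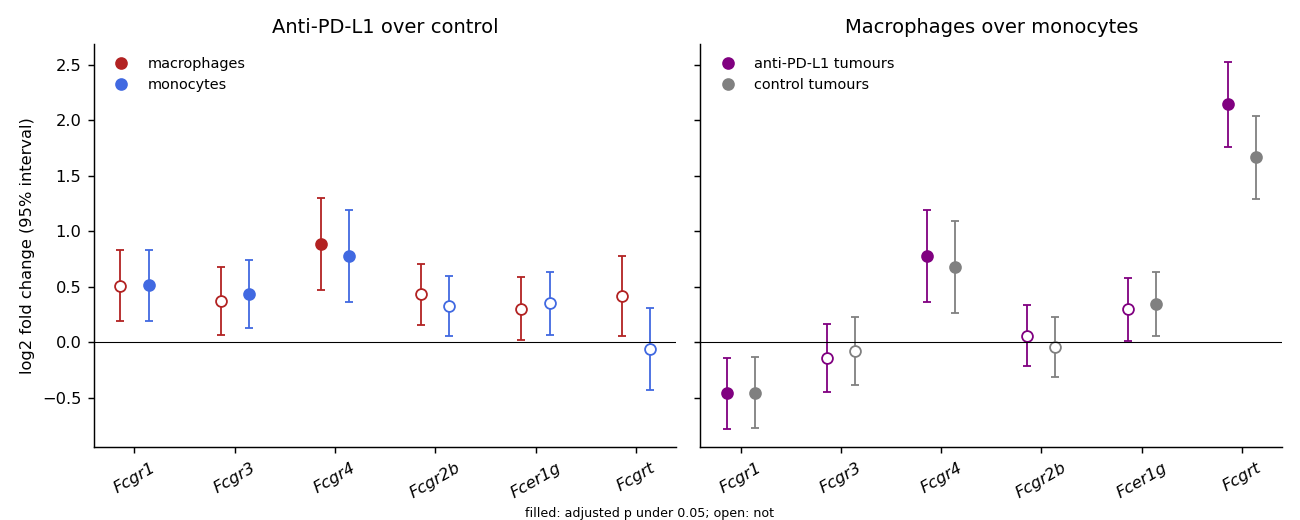
Log2 fold changes of the 6 genes with 95% intervals from edgeR. The left panel shows anti-PD-L1 over control in macrophages (red) and monocytes (blue), and the right panel macrophages over monocytes in anti-PD-L1 tumours (purple) and control tumours (grey). Filled points have an adjusted p under 0.05. Fcgr4 is filled in all 4 comparisons, and Fcgrt has the highest values at right, 2.14 and 1.66.

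The treatment effect was not shown to differ between macrophages and monocytes for any of the 6 genes. The difference of the log2 fold changes, macrophage minus monocyte, was 0.11 ± 0.28 SE for Fcgr4 (95% interval -0.48 to 0.69) and -0.0047 ± 0.22 SE for Fcgr1 (-0.46 to 0.45). It was largest for Fcgrt, at 0.48 ± 0.25 SE (-0.039 to 0.99, unadjusted p = 0.0681, edgeR adjusted p = 0.817). Among all 15390 genes, 0.0% were called for this difference by edgeR, 980 had an unadjusted p under 0.05, DESeq2 called 5 and limma-voom with the replicate block called 8. The intervals allow differences of up to 0.69 for Fcgr4, so equal responses are not shown.

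Fibroblast marker level moved with treatment, and the values of the members under 2 fits that take it into account are given beside the main ones. Without the 7 control libraries with the highest fibroblast level, which left 2 control macrophage libraries and 1 control monocyte library, the macrophage log2 fold change of Fcgr4 was 0.90 (edgeR adjusted p = 0.0292) and the monocyte value 0.69 (adjusted p = 0.333). The lone control monocyte library was assumed to vary like the other groups. Fcgr1 was at 0.34 in macrophages (adjusted p = 0.233) and 0.025 in monocytes (adjusted p = 0.995), and Fcer1g at 0.072 in macrophages and 0.041 in monocytes. With the fibroblast level as a covariate, Fcgr4 was at 0.87 in macrophages (adjusted p = 0.508) and 0.76 in monocytes (adjusted p = 0.171), and no member was called with treatment. That fit called 2 genes of 15390 in macrophages and 7 in monocytes.

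**Figure D3:**
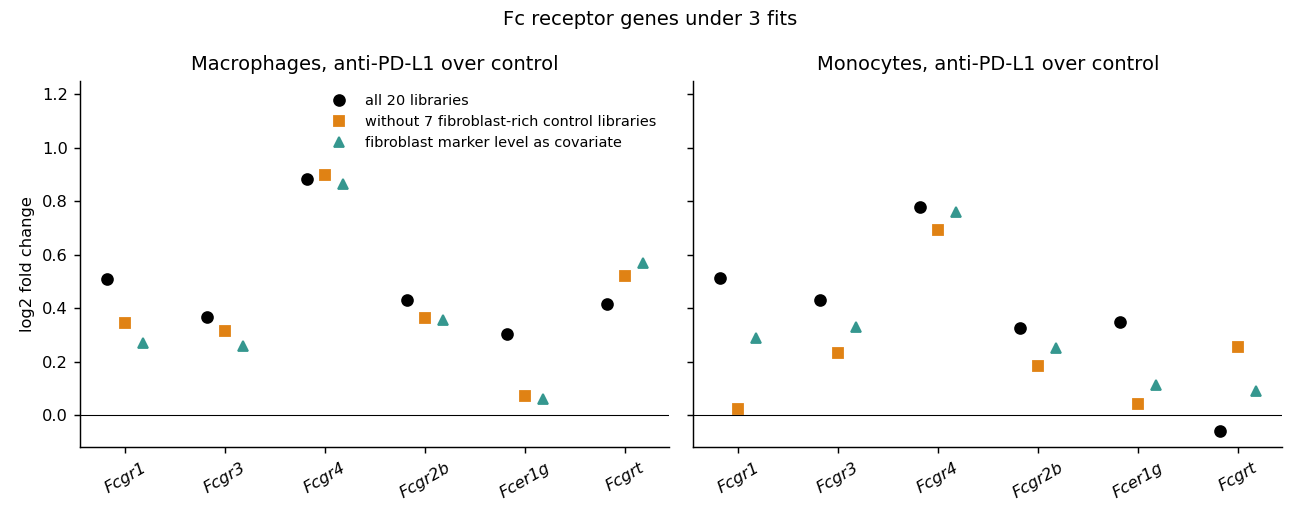
Log2 fold changes, anti-PD-L1 over control, of the 6 genes in macrophages (left) and monocytes (right) from all 20 libraries (circles), without the 7 fibroblast-rich control libraries (squares) and with the fibroblast marker level as covariate (triangles). Fcgr4 lies between 0.69 and 0.90 in all 3 fits, while Fcgr1 in monocytes is at 0.51, 0.025 and 0.29.

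Markers of other cells that carry these receptors were measured too. The 8 NK cell markers, a cell that uses Fcgr3 and Fcer1g, summed to 83.0 to 106 CPM in anti-PD-L1 macrophages and 35.1 to 89.7 in control macrophages, and to 107 to 158 in anti-PD-L1 monocytes and 32.6 to 73.4 in control monocytes. The defining NK gene Ncr1 had 2 to 56 reads per library. The 10 neutrophil markers, a cell that uses Fcgr3 and Fcgr4, summed to 80.0 to 125 CPM in anti-PD-L1 macrophages and 50.7 to 88.3 in control macrophages, and to 265 to 583 in anti-PD-L1 monocytes and 195 to 423 in control monocytes. Ly6g, a defining neutrophil gene, had 0 to 25 reads, but others of the list had more, with S100a9 at 0 to 6826 and Csf3r at 1786 to 7206. The sum in macrophages was mostly Csf3r, which averaged 96.4 CPM in anti-PD-L1 macrophages and 61.8 in control macrophages. Csf3r averaged 212 CPM in anti-PD-L1 monocytes and 130 in control monocytes. S100a9 averaged 86.6 CPM in anti-PD-L1 monocytes and 75.0 in control monocytes, against 0.076 in anti-PD-L1 macrophages and 0.24 in control macrophages. The 8 dendritic cell markers, of another myeloid cell with Fc gamma receptors, summed to 62.1 to 88.1 CPM (median 78.1) in anti-PD-L1 macrophages and 30.3 to 82.9 (median 35.6) in control macrophages, and to 28.5 to 46.1 in anti-PD-L1 monocytes and 23.9 to 35.5 in control monocytes. Xcr1, a marker of cross-presenting dendritic cells, averaged 36.7 CPM in anti-PD-L1 macrophages and 18.1 in control macrophages. The part of these cells in the receptor values was not tested.

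Between the cell types, Fcgrt and Fcgr4 were higher in macrophages and Fcgr1 was higher in monocytes, in tumours of either treatment. The comparisons in this paragraph share their libraries with those of treatment and are not independent of them. Fcgrt was 4.41-fold higher in anti-PD-L1 macrophages than in anti-PD-L1 monocytes (log2 fold change 2.14 ± 0.18 SE, edgeR adjusted p = 1.70e-08) and 3.17-fold higher in control macrophages than in control monocytes (1.66 ± 0.18 SE, adjusted p = 4.77e-07). No macrophage library overlapped the monocyte range in either treatment. Of all genes tested, 53.9% were called between the cell types in anti-PD-L1 tumours and 44.1% in control tumours. The shares of genes that did not overlap were 25.0% with macrophages higher and 22.0% with macrophages lower in anti-PD-L1 tumours, and 14.3% and 10.8% in control tumours.

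Fcgr4 was higher in macrophages by a log2 fold change of 0.78 ± 0.20 SE in anti-PD-L1 tumours (edgeR adjusted p = 0.00254) and 0.67 ± 0.20 SE in control tumours (adjusted p = 0.00938). The libraries of anti-PD-L1 tumours did not overlap. In control tumours, macrophage library 5, at 341 nRPKM, lay inside the monocyte range and the other 4 lay above it. On the 2 control groups alone that call was lost (0.66, adjusted p = 0.0593, alternatives 0.000277 to 0.0593).

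Fcgr1 ran the other way. It was lower in macrophages, with a log2 fold change over monocytes of -0.46 ± 0.15 SE in both anti-PD-L1 tumours (edgeR adjusted p = 0.0152) and control tumours (adjusted p = 0.0200). In anti-PD-L1 tumours all 5 macrophage libraries lay below all 5 monocyte libraries, which 22.0% of genes did, and the call was lost in 3 of 20 omissions (anti-PD-L1 monocyte 2, anti-PD-L1 macrophage 3 or 5). In control tumours the ranges overlapped, and leaving out control monocyte 2, control monocyte 5 or control macrophage 5 ended the call (log2 fold change -0.30 without control monocyte 5).

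Fcer1g stood between these patterns. Macrophages were higher by 0.34 ± 0.14 SE on the log2 scale in control tumours (edgeR adjusted p = 0.0477), a call that was lost in 14 of 20 omissions of 1 library, with log2 fold changes from 0.23 to 0.43. In anti-PD-L1 tumours the log2 fold change was 0.29 ± 0.14 SE (edgeR adjusted p = 0.0750), and although it missed the threshold the 5 macrophage libraries all lay above the 5 monocyte libraries. With neighbouring sample numbers as a replicate block (limma-voom) it was 0.30 and called (adjusted p = 0.00399, alternatives 0.000552 to 0.183).

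Fcgr2b and Fcgr3 did not differ detectably between the cell types. The macrophage over monocyte log2 fold change of Fcgr2b was 0.059 ± 0.13 SE in anti-PD-L1 tumours (95% interval -0.21 to 0.33) and -0.046 ± 0.13 SE in control tumours (-0.32 to 0.23). That of Fcgr3 was -0.15 ± 0.15 SE in anti-PD-L1 tumours (-0.45 to 0.16) and -0.083 ± 0.15 SE in control tumours (-0.39 to 0.22).

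Ordered by mean nRPKM, Fcgr4 stood highest in anti-PD-L1 macrophages (1189.9), followed by anti-PD-L1 monocytes (705), control macrophages (637) and control monocytes (412), and each neighbouring pair below the highest group had overlapping ranges. Fcgr1 stood highest in anti-PD-L1 monocytes (509), followed by anti-PD-L1 macrophages (363), control monocytes (358) and control macrophages (253), again with overlap in each neighbouring pair below the highest. By mean nRPKM, both anti-PD-L1 groups stood above both control groups for Fcgr4, Fcgr1, Fcgr2b, Fcgr3 and Fcer1g. The margin was narrow for Fcgr1, at 363 in anti-PD-L1 macrophages against 358 in control monocytes. It was narrow too for Fcer1g, at 1352 in anti-PD-L1 monocytes against 1311 in control macrophages, with overlapping ranges. Fcgrt was ordered by cell type first.

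The ratio of activating to inhibitory receptor RNA was taken per library as the ratio of nRPKM to that of Fcgr2b. With treatment, 1 of the 6 tests passed the threshold, that of Fcgr4 over Fcgr2b in monocytes. The ratio of Fcgr4 to Fcgr2b was 1.27, 1.22, 1.27, 1.13 and 1.01 in anti-PD-L1 monocytes, against 1.07, 0.848, 0.697, 0.842 and 0.824 in control monocytes. Control library 1 lay above anti-PD-L1 library 5, and the other 4 controls lay below the anti-PD-L1 range. The log2 difference was 0.47 (two-sided exact permutation test, p = 0.0159, adjusted p = 0.0381 over 12 tests, n = 5 each). The smallest p that this design allows is 0.00794, and the call was lost in 8 of 10 omissions of 1 library, which allow fewer splits.

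In macrophages the ratio of Fcgr4 to Fcgr2b was 2.37, 2.24, 1.80, 1.83 and 1.48 with anti-PD-L1, against 1.41, 1.48, 1.99, 1.19 and 0.944 in controls. Control libraries 2 and 3 reached the anti-PD-L1 range. The log2 difference of 0.49 missed the threshold (exact permutation p = 0.0714, adjusted p = 0.107). Without the 7 fibroblast-rich control libraries the log2 difference was 0.53 in macrophages and 0.51 in monocytes, with no test.

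Fcgr1 and Fcgr3 stayed closer to Fcgr2b across treatment. The ratio of Fcgr1 to Fcgr2b averaged 0.595 ± 0.080 in anti-PD-L1 macrophages and 0.561 ± 0.067 in control macrophages (log2 difference 0.082, exact permutation adjusted p = 0.516), and 0.857 ± 0.112 in anti-PD-L1 monocytes and 0.745 ± 0.154 in control monocytes (log2 difference 0.22, adjusted p = 0.296; SD, n = 5 each). Without the 7 fibroblast-rich control libraries these log2 differences turned negative, at -0.019 in macrophages and -0.15 in monocytes, with no test. The ratio of Fcgr3 to Fcgr2b lay between 0.843 and 1.10 in all 20 libraries. Its log2 difference with treatment was -0.056 in macrophages (exact permutation adjusted p = 0.371) and 0.11 in monocytes (adjusted p = 0.107). Their shared sequence limits what the ratio of this pair can show.

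Between cell types the ratio of Fcgr4 to Fcgr2b was higher in macrophages, and that of Fcgr1 to Fcgr2b lower. In anti-PD-L1 tumours the log2 difference, macrophages minus monocytes, was 0.70 for Fcgr4 and -0.53 for Fcgr1. The groups did not overlap in either case (exact permutation p = 0.00794, the smallest possible, adjusted p = 0.0381). Each of these calls was lost in 3 of 10 omissions (anti-PD-L1 monocyte 1, 2 or 3), with exact permutation adjusted p up to 0.0635. Groups that do not overlap stay apart with 1 library left out. Those losses reflect fewer splits and the adjustment over 12 tests, and do not single out these libraries. The ratio of Fcgr3 to Fcgr2b was lower too, with a log2 difference of -0.21 (exact permutation adjusted p = 0.0381, lost in 8 of 10 omissions). In control tumours the log2 difference was 0.68 for Fcgr4 (adjusted p = 0.0381, exact permutation, lost in 8 of 10 omissions) and -0.39 for Fcgr1, which missed the threshold (adjusted p = 0.107), and -0.042 for Fcgr3 (adjusted p = 0.390). Within neighbouring sample numbers, the macrophage library had the lower Fcgr1 ratio and the higher Fcgr4 ratio in 5 of 5 pairs in each treatment. An exact paired test over 5 pairs cannot go below p = 0.0625.

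**Figure D4:**
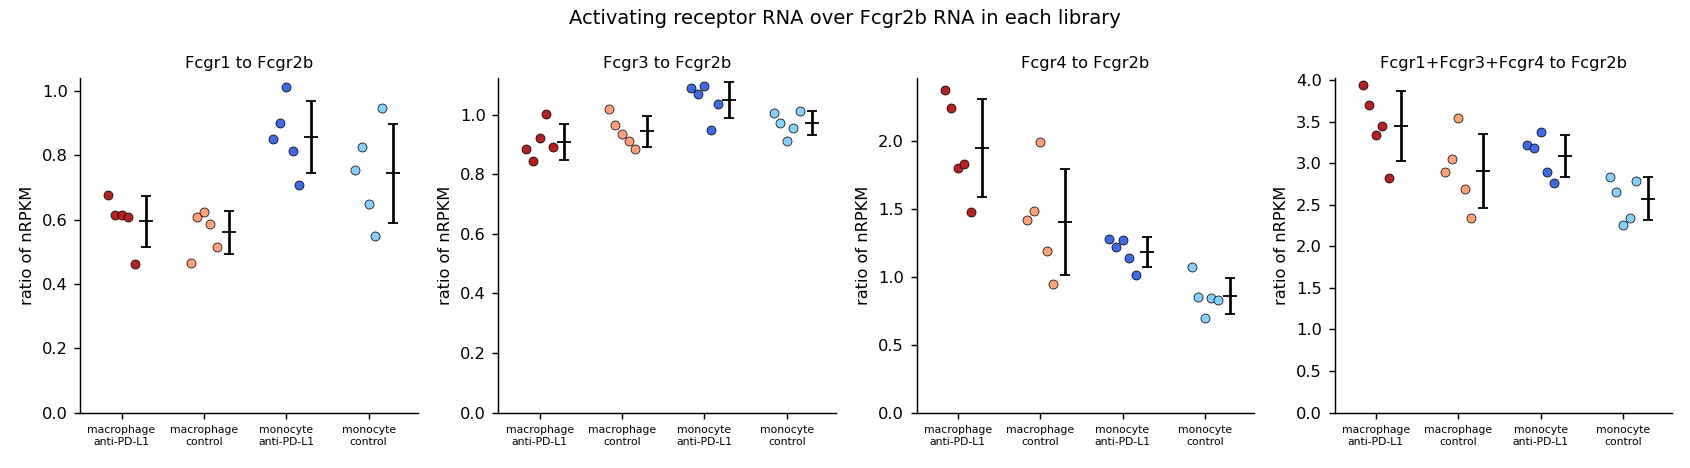
Ratio of the nRPKM of each activating receptor, and of their sum, to that of Fcgr2b in each of the 20 libraries, with axes from 0. Points are libraries and bars the group mean with its SD (n = 5). The Fcgr4 ratio separates anti-PD-L1 macrophages (1.48 to 2.37) from anti-PD-L1 monocytes (1.01 to 1.27), and the Fcgr3 ratio lies near 1 throughout.

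The summed ratio, Fcgr1 with Fcgr3 and Fcgr4 over Fcgr2b, is given as a description. It was 3.93, 3.70, 3.34, 3.44 and 2.83 in anti-PD-L1 macrophages, against 2.90, 3.05, 3.55, 2.69 and 2.35 in control macrophages. In monocytes it was 3.21, 3.19, 3.38, 2.90 and 2.76 with anti-PD-L1, against 2.83, 2.65, 2.26, 2.34 and 2.78 in controls. Averages were 3.45 ± 0.418 in anti-PD-L1 macrophages and 2.91 ± 0.446 in control macrophages, and 3.09 ± 0.253 in anti-PD-L1 monocytes and 2.57 ± 0.259 in control monocytes (SD, n = 5 each). The groups overlapped in both cell types. The composition of the sum differed by cell type: nRPKM of Fcgr4 over that of Fcgr1 averaged 3.26 ± 0.310 in anti-PD-L1 macrophages and 2.50 ± 0.598 in control macrophages, and 1.39 ± 0.092 in anti-PD-L1 monocytes and 1.19 ± 0.279 in control monocytes. Set against the common gamma chain, the summed nRPKM of the 3 activating receptors over that of Fcer1g averaged 1.29 ± 0.098 in anti-PD-L1 macrophages and 1.02 ± 0.188 in control macrophages, and 1.36 ± 0.058 in anti-PD-L1 monocytes and 1.17 ± 0.121 in control monocytes.

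The rest of the Fc receptor pathway was described from 7 lists holding 101 genes, of which 94 were tested. In anti-PD-L1 macrophages 5 of the 94 were called higher and 0 lower, or 5.32% beside 4.65% of all genes tested, with a median log2 fold change of 0.25 beside -0.012. Counted in either direction, the share called in macrophages was thus near that of all genes. All 5 calls were higher, and of all genes 1.73% were called higher in macrophages and 9.92% in monocytes. In anti-PD-L1 monocytes 38 were called higher and 3 lower, or 43.6% beside 25.3% of all genes, with a median log2 fold change of 0.32 beside 0.020. With 1 library left out, 0 to 20 were called in macrophages and 11 to 55 in monocytes. The fit with the fibroblast covariate called 0 of them in either cell type. Over all genes that fit called 1 higher and 1 lower in macrophages, and 5 higher and 2 lower in monocytes. Between the cell types, 18 were called higher and 37 lower in anti-PD-L1 macrophages, and 18 higher and 34 lower in control macrophages. These are 58.5% of the 94 beside 53.9% of all genes in anti-PD-L1 tumours, and 55.3% beside 44.1% in control tumours. Over all genes, 4334 were called higher and 3959 lower in anti-PD-L1 macrophages, and 3700 higher and 3084 lower in control macrophages.

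Of 16 ITAM adaptors and kinases, Syk, the kinase that docks on the phosphorylated gamma chain, was called in both cell types. Its log2 fold change was 0.40 ± 0.10 SE in macrophages (edgeR adjusted p = 0.0397) and 0.51 ± 0.10 SE in monocytes (adjusted p = 0.00386), and its nRPKM was 39.7 to 43.2 in anti-PD-L1 macrophages and 29.2 to 33.8 in control macrophages, without overlap. Syk was lower in macrophages than in monocytes, with log2 fold changes of -0.91 ± 0.10 SE in anti-PD-L1 tumours and -0.80 ± 0.10 SE in control tumours. The Src-family kinase Lyn, which phosphorylates the ITAM, rose in anti-PD-L1 monocytes by a log2 fold change of 0.36, with Btk at 0.38 and Sh3bp2 at 0.44. Blnk, an adaptor below Syk, fell there by 0.43 on the log2 scale and was higher in macrophages than in monocytes by 3.85 in anti-PD-L1 tumours and 3.31 in control tumours. Fgr, another Src-family kinase, had log2 fold changes of macrophages over monocytes of -2.05 in anti-PD-L1 tumours and -2.15 in control tumours. Tyrobp, an ITAM adaptor of other myeloid receptors, was not called with treatment, at log2 fold changes of 0.36 ± 0.15 SE in macrophages (edgeR adjusted p = 0.162) and 0.30 ± 0.15 SE in monocytes (adjusted p = 0.152).

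Of 32 downstream signalling and phagocytosis genes, 1 was called in macrophages and 15 in monocytes, of which 14 were higher. These are 3.12% of the list in macrophages, beside 4.65% of all genes, and 46.9% in monocytes, beside 25.3%, in either direction. Of all genes, 1.73% were called higher in macrophages and 9.92% in monocytes. Ncf1, a subunit of the phagocyte NADPH oxidase, rose in anti-PD-L1 macrophages by a log2 fold change of 0.32 ± 0.09 SE (edgeR adjusted p = 0.0488). Cybb, the catalytic subunit of that oxidase, rose in anti-PD-L1 monocytes by 0.64 ± 0.12 SE (adjusted p = 0.00358), with Prkcd, a kinase that acts on the oxidase, at 0.55. The phospholipase gene Plcg1 fell there by 0.84 on the log2 scale. Between the cell types, Prkce, a protein kinase C, was lower in macrophages (log2 fold change -2.07 in anti-PD-L1 tumours, -1.57 in control tumours) and Marcks, a substrate of these kinases, higher (1.01 and 1.04).

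The 13 genes of the inhibitory arm gave no call in macrophages, where 4.65% of all genes were called, and 4 in monocytes, all higher. The monocyte count is 30.8% of the list, beside 25.3% of all genes called in either direction and 9.92% called higher. Inpp5d, which encodes the phosphatase SHIP1 that Fcgr2b recruits, rose in anti-PD-L1 monocytes by 0.35 ± 0.13 SE on the log2 scale (edgeR adjusted p = 0.0492). Ptpn6 (SHP-1) rose by 0.56, Ptprc (CD45) by 0.66 and Csk, the kinase that restrains Src-family kinases, by 0.32. Dok2, a docking protein, was lower in macrophages than in monocytes (log2 fold change -1.76 in anti-PD-L1 tumours, -2.07 in control tumours).

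Of 15 known regulators of these receptors, 2 were called in macrophages and 8 in monocytes, all higher. The share was 13.3% in macrophages, beside 4.65% of all genes called in either direction and 1.73% called higher. In monocytes it was 53.3%, beside 25.3% in either direction and 9.92% higher. Il4ra, the interleukin-4 receptor chain, rose by a log2 fold change of 0.57 ± 0.12 SE in macrophages (edgeR adjusted p = 0.0356) and by 0.46 in monocytes. In anti-PD-L1 monocytes Irf1 rose by 0.77, Irf8 by 0.67 and the interferon gamma receptor chain Ifngr2 by 0.37. Irf1 was lower in macrophages than in monocytes (log2 fold change -1.38 in anti-PD-L1 tumours, -1.19 in control tumours), as was Cebpb (-2.10 and -2.09), while the receptor Tgfbr2 was higher (1.04 and 0.87).

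Of 8 receptors for other opsonins, Itgb2, the beta chain of the complement receptors CR3 and CR4, rose by 0.66 ± 0.17 SE in anti-PD-L1 macrophages (edgeR adjusted p = 0.0407) and by 0.53 in anti-PD-L1 monocytes, where Itgax and C3ar1 rose too, by 0.53 and 0.41. Mertk, which takes up apoptotic cells, was higher in macrophages than in monocytes by 1.71 in anti-PD-L1 tumours and 1.48 in control tumours, and Axl by 0.60 in both. The partner of FcRn, B2m, rose in anti-PD-L1 monocytes by 0.44 ± 0.15 SE (edgeR adjusted p = 0.0371), and Exoc6, an exocyst subunit, by 0.33. Rab11fip1, an effector of recycling endosomes, was lower in macrophages (log2 fold change -2.24 in anti-PD-L1 tumours, -1.88 in control tumours), the opposite direction to Fcgrt.

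Of 13 other Fc receptor and related genes, 6 were tested. Fcrls, an Fc receptor-like gene, averaged 80.3 ± 30.9 nRPKM in anti-PD-L1 macrophages, 118 ± 53.4 in control macrophages, 2.34 ± 1.04 in anti-PD-L1 monocytes and 6.09 ± 2.37 in control monocytes (SD, n = 5 each). It fell in anti-PD-L1 monocytes by 1.38 on the log2 scale (edgeR adjusted p = 0.0188). Fcrlb rose there by 0.60 and Trim21, a cytosolic IgG receptor, by 0.52. Fcrl5 averaged 7.58 ± 4.83 nRPKM in anti-PD-L1 macrophages and 3.07 ± 2.03 in control macrophages, against 0.112 in anti-PD-L1 monocytes and 0.136 in control monocytes. The IgE receptor gene Fcer1a had at most 10 reads in any library, its beta chain Ms4a2 at most 5, Fcer2a at most 6, Fcmr at most 7, Fcrl6 at most 10, Pigr at most 1, and Fcamr had 0.

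**Figure D5:**
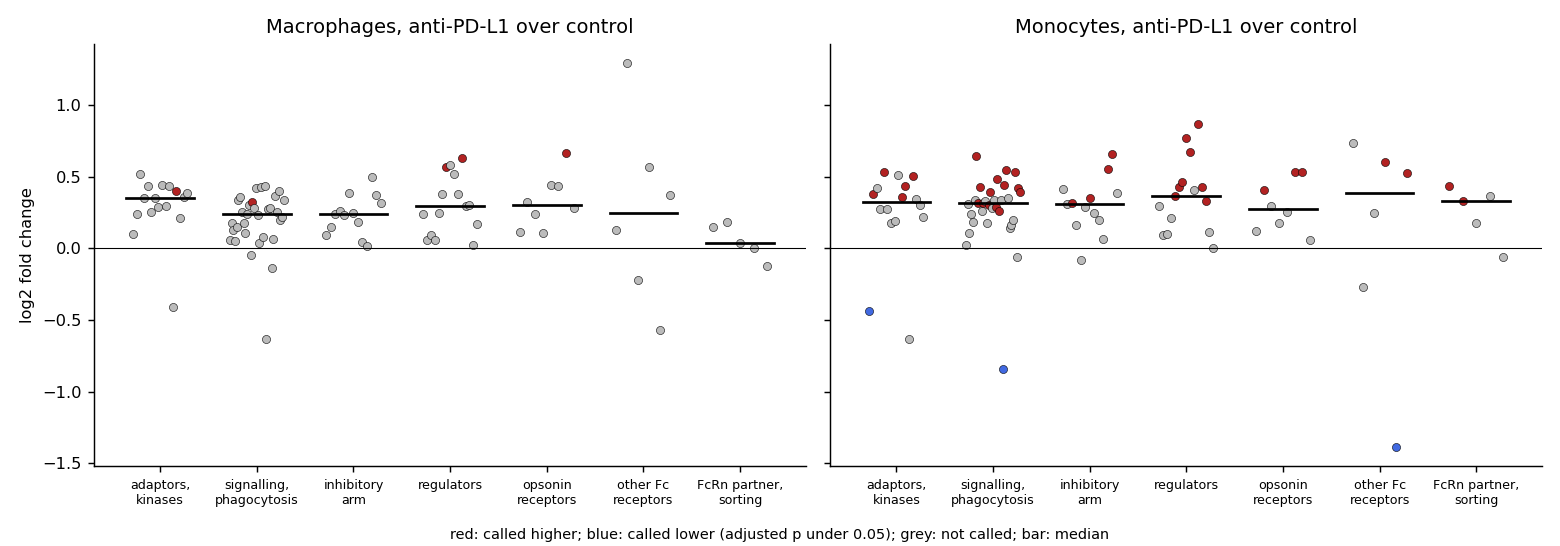
Log2 fold changes, anti-PD-L1 over control, of the 94 tested genes of the 7 pathway lists in macrophages (left) and monocytes (right). Each point is a gene, red where called higher and blue where called lower (edgeR adjusted p under 0.05), and bars are list medians. In monocytes 38 genes are red and 3 blue, and in macrophages 5 are red.

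The genes whose profile was most like that of each member were found by the root-mean-square difference of log2 CPM, each gene centred on its mean over the 20 libraries, among the 7274 protein-coding genes whose log2 CPM averaged 4 or more. For Fcgr1 they were Dhx58 (0.104), Pnp (0.111) and Pstpip1 (0.120), against a spread of 0.413 of Fcgr1 itself. Fcgr2b and Fcgr3 were near each other (0.104), with Tmem219 (0.097) nearer to Fcgr2b and Cyba (0.109) next to Fcgr3. The nearest to Fcgr4 were Plaat3 (0.228), Sirpb1a (0.248) and Pecam1 (0.255). Stard3nl (0.103), Rab7b (0.110) and M6pr (0.110) were nearest to Fcer1g, and Acp5 (0.298), Cpq (0.303) and Ntpcr (0.308) to Fcgrt, whose own spread was 0.999.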

How the data were processed

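RNA-seq was run on 20 libraries from sorted tumour macrophages and monocytes, 5 in each of 4 groups named by the titles. The labels' protocols name the TruSeq Stranded Total RNA kit, while another label gives polyA RNA. The authors deposited, per the file headers, counts of reads uniquely aligning to each gene model and size-factor-adjusted RPKM (nRPKM). Reads were aligned with GSNAP to GRCm38, per the submitters' processing notes; the annotation and the counter are not named there. For the 9500 genes checked, nRPKM equalled the count divided by 1 value per gene and 1 factor per library. That factor lay between 0.842 and 1.24, relative to the geometric mean of the 20 libraries.

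Entrez IDs were matched to RefSeq symbols for 31049 of 36528 gene models, which held 98.0% of the counts. CPM are counts scaled to a library total, and RPKM also to gene length. Counts were tested with edgeR 4.0.16 (quasi-likelihood, TMM scaling, filterByExpr by group, all 20 libraries, 15390 genes), with Benjamini-Hochberg adjustment over all genes and a threshold of 0.05; intervals are 95%. Ratios of nRPKM were tested by two-sided exact permutation over libraries, adjusted over 12 tests. The code was tested on simulated data with known changes. Alternatives were DESeq2 1.42.0, limma-voom (limma 3.58.1) with and without a block, RLE scaling, no filter on low counts, the 2 groups compared alone, fibroblast-marker adjustments, Fcgr2b and Fcgr3 summed, and leaving out each library.

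Titles carry no replicate number, so a library's number within its group follows accession order and is only a name. Neighbouring sample numbers each join a macrophage and a monocyte library of 1 treatment. The deviations of these 10 pairs from their group means correlated between 0.218 and 0.722. In 8 pairs this exceeded the correlation with every other library of the partner's cell type and treatment. The pairs were used as a block in the limma-voom alternative only. The main edgeR tests and the permutation tests did not use them. Whether they share a tumour is not stated.

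All 6 members are named throughout; of each pathway list, up to 4 called genes with the smallest p per comparison, with 7 genes named always; a few genes that this rule names are not reported here. The members and lists were chosen with earlier results of these data known. Of 217 listed genes (members, pathway and markers), 5 marker genes matched no gene model. Promoter windows came from RefSeq on GRCm38.p6 and transcripts from GENCODE. Depth was 30191509 to 36514133 counts per library. For the 6 members, with at least 728 reads in every library, counting error is then small beside the spread between libraries. This was not assessed for genes with few reads, such as Fcrl5, Ncr1 and Ly6g.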

Additional observations from a re-analysis of the deposited data

Results flagged for a closer look

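Fcgrt in control monocyte library 4 stood apart from the other 4 libraries of its group, at 25.8 nRPKM against 13.7 to 16.6. Its gap to the nearest library was 0.757 of the group's range, above Dixon's 95% critical value of 0.71 for 5 libraries. In all, 40 groups of values (the 6 genes and 4 ratios in each of 4 groups) were examined, and chance alone marks about 1 in 20. Without that library the log2 fold change of Fcgrt in anti-PD-L1 over control was 0.47 in macrophages, where the edgeR adjusted p became 0.0433, and 0.13 in monocytes.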

How the results depend on the processing

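Of 403 results recomputed under other settings, 337 kept their direction and their side of the threshold, 30 lost the call, 14 gained one, 12 changed sign and 10 moved. The cause of these changes was not tested. In macrophages the count of genes called for anti-PD-L1 over control (715) was 1815 with DESeq2, 1193 on the 2 groups alone, 191 with limma-voom, 243 with limma-voom and the replicate block, 42 without the fibroblast-rich control libraries and 2 with the fibroblast covariate. Members called there (1) were 3 with DESeq2, 3 on the 2 groups and 0 with the covariate. Pathway genes called (5) were 15 with DESeq2, 10 on the 2 groups, 3 with limma-voom, 3 with no filter on low counts, and 0 under both fibroblast settings. Fcgr1 and Fcgr2b gained calls at 0.52 and 0.45 with DESeq2 and at 0.50 and 0.42 on the 2 groups; Fcgr4 lost its call at 0.87 with the covariate. In monocytes the counts (3900 genes, 3 members, 41 pathway genes) were 2019, 1 and 11 on the 2 groups, 7, 0 and 0 with the covariate, and 0, 0 and 0 without the fibroblast-rich libraries, a fit with 1 control monocyte library. Lost calls were Fcgr1 at 0.50, 0.29 and 0.025, and Fcgr3 at 0.41, 0.33 and 0.23, in those 3 settings, Fcgr4 at 0.76 and 0.69 in the fibroblast settings, and Fcgr3 at 0.43 with no filter and 0.38 summed with Fcgr2b. Fcer1g gained a call at 0.37 with the replicate block. Fcgrt turned from -0.060 to 0.092 with the covariate and 0.25 without the fibroblast-rich libraries.

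For the difference of treatment effects the 0 genes called became 5 with DESeq2 and 8 with the replicate block. None of the sign changes there concerned a call: Fcgr1 was 0.016 with RLE scaling, 0.017 with DESeq2 and 0.32 without the fibroblast-rich libraries, where Fcgr3 was 0.085 and Fcer1g 0.031, and Fcgr3 was 0.014 summed with Fcgr2b. Between cell types in control tumours, members called (4) were 1 on the 2 groups, where Fcgr1 (-0.47), Fcgr4 (0.66) and Fcer1g (0.33) lost their calls. Fcer1g also lost its call there at 0.30 with DESeq2, 0.30 with RLE scaling, 0.36 with no filter, 0.24 with the covariate and 0.27 without the fibroblast-rich libraries. In anti-PD-L1 tumours Fcer1g gained a call at 0.27 on the 2 groups, 0.31 without those libraries and 0.30 with the replicate block, and Fcgr2b, uncalled, was -0.052 summed with Fcgr3. The replicate block changed no other call of a member. The log2 ratio of summed activating receptors to Fcgr2b between cell types in anti-PD-L1 tumours was -0.0011 from CPM, which leaves gene length in. The log2 ratio of Fcgr1 to Fcgr2b with treatment was -0.019 in macrophages and -0.15 in monocytes without the fibroblast-rich libraries.

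Leaving out each library in turn gave 1060 values, of which 882 kept direction and side of the threshold. With 1 library left out, genes called ranged from 14 to 1928 in macrophages and from 1883 to 5359 in monocytes, members called from 0 to 4 and from 1 to 4, and pathway genes called from 0 to 20 and from 11 to 55; genes called for the difference of effects ranged from 0 to 41. Log2 fold changes with treatment ranged in macrophages from 0.77 to 1.04 for Fcgr4, 0.46 to 0.62 for Fcgr1, 0.40 to 0.52 for Fcgr2b and 0.38 to 0.63 for Fcgrt, and in monocytes from 0.40 to 0.64 for Fcgr1, 0.34 to 0.49 for Fcgr3, 0.25 to 0.41 for Fcer1g and -0.15 to 0.13 for Fcgrt. The difference of effects ranged from -0.13 to 0.11 for Fcgr1, -0.10 to 0.070 for Fcgr3 and -0.11 to 0.093 for Fcer1g. Macrophages over monocytes ranged in anti-PD-L1 tumours from -0.48 to -0.38 for Fcgr1 and 0.29 to 0.35 for Fcer1g, and in control tumours from -0.57 to -0.30 for Fcgr1, -0.12 to 0.0045 for Fcgr2b and 0.23 to 0.43 for Fcer1g. Log2 ratios to Fcgr2b ranged with treatment in monocytes from 0.40 to 0.56 for Fcgr4 and 0.086 to 0.14 for Fcgr3. Between cell types they ranged from 0.63 to 0.80 for Fcgr4, -0.59 to -0.44 for Fcgr1 and -0.24 to -0.18 for Fcgr3 in anti-PD-L1 tumours, and from 0.55 to 0.81 for Fcgr4 and -0.50 to -0.30 for Fcgr1 in control tumours.

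The untested Fc receptor genes, with 10 reads or fewer, allow no statement about change.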
